A study of Mus musculus with 2 samples.

Results

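AP-1 is the family of dimers that proteins with a basic leucine zipper build on DNA. Its members here were 10 genes chosen by symbol, of the 31053 features in the count tables: the Fos group Fos, Fosb and Fosl2, the Jun group Jun, Junb and Jund, the stress-inducible Atf3, the Batf pair Batf and Batf3, and the small Maf gene Maff. All 10 symbols were found in both libraries. Their transcripts were counted by single-cell RNA sequencing in cells of the mouse colon lamina propria that the labels give as cd11b+, the product of the integrin gene Itgam. One library came from WT mice and 1 from mice that the labels call LncRNA17Rik knockout and the study calls lncLy6c KO. Per the study's methods the KO was made with CRISPR-Cas9 by cutting on both sides of the 2 exons of the long non-coding RNA, on a C57BL/6J background, and cells of several male mice, 8 weeks old, were pooled. With 1 library per genotype there is no replicate, so no test between WT and KO was possible, and genotype cannot be told apart from the animals and the library. All intervals below are 95% and cover counting error only.

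Fos proteins bind DNA only as partners of Jun proteins or related zippers, whereas Jun proteins can also pair with themselves. Fos, Fosb, Jun, Junb and Atf3 are immediate-early genes, which are transcribed within minutes of growth signals, inflammation or stress, mostly downstream of MAP kinases. Tissue dissociation induces them too, so their level in sorted gut cells also depends on handling. Batf and Batf3 lack an activation domain of their own and join Jun proteins and the interferon regulatory factors Irf4 and Irf8 on composite sites. Batf3 is known for its need in the development of cDC1, the dendritic cells that cross-present antigen. Maff encodes a small Maf protein, which also lacks an activation domain.

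The gene positions come from GENCODE M21 on GRCm38, the assembly behind the mm10 build named in the submitters' processing notes. Fos (ENSMUSG00000021250) lies at chr12:85473890-85477273, and Batf (ENSMUSG00000034266) on the same chromosome at chr12:85686669-85709087. Atf3 (ENSMUSG00000026628, chr1:191170296-191218039) and Batf3 (ENSMUSG00000026630, chr1:191097847-191108945) also share a chromosome. Junb (ENSMUSG00000052837, chr8:84974484-84978718) and Jund (ENSMUSG00000071076, chr8:70698949-70700616) share chromosome 8. Fos, Fosl2, Jund, Batf, Batf3 and Maff are on the plus strand and the other members on the minus strand. The remaining members are Fosb (ENSMUSG00000003545, chr7:19302696-19310051), Fosl2 (ENSMUSG00000029135, chr5:32135801-32157842), Jun (ENSMUSG00000052684, chr4:95049034-95052222) and Maff (ENSMUSG00000042622, chr15:79346621-79359076). Jun overlaps the antisense gene Junos, Junb overlaps Prdx2 and Jund overlaps Gm11175, each on the opposite strand, and the strand setting of the count is not given in the sources used here.

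RefSeq promoter windows of 300 bases (GRCm38.p6, from 250 bases before to 50 after the start) were found for all 10 members, in 12 entries. They were searched on both strands for the TRE TGACTCA and the CRE TGACGTCA, the classical AP-1 and ATF/CREB letters, for TGACNTCA, which holds the CRE, for TGACG, which overlaps the CRE, and for the CArG box of serum response factor. Across 32544 distinct windows of all genes, TGACTCA was in 5.19%, TGACGTCA in 1.80%, TGACNTCA in 8.62%, TGACG in 20.9% and the CArG box in 1.64%. No member window held TGACTCA or a CArG box. Sites outside these windows were not searched, so this does not show that a member lacks them. TGACG was in a window of 6 of 10 members and TGACNTCA of 2 of 10, Jun and Maff. The last 2 of these motifs, TGACNTCA and TGACG, were added after the windows had been seen. The windows of 5 members are shown, Fos and Jun as the genes of the classical AP-1 pair, Junb and Atf3 because Junb was lower and Atf3 higher past 1.5-fold in the most groups, and Maff because it held the sole CRE, in the second of its 3 entries. Capitals mark TGACG or TGACNTCA on either strand.
Fos (chr12:85473640-85473939, plus strand): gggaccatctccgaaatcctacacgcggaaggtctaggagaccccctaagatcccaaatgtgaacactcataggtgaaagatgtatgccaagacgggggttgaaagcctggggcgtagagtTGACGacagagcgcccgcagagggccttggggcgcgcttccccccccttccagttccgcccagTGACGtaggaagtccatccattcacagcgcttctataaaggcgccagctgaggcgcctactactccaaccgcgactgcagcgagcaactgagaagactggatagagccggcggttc
Jun (chr4:95052173-95052472, minus strand): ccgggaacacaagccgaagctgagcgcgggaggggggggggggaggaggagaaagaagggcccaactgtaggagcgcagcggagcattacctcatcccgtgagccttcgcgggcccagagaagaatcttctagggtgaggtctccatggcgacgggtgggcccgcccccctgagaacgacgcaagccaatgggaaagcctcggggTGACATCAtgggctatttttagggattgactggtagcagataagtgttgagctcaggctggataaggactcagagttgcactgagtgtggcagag
Junb (chr8:84978699-84978998, minus strand): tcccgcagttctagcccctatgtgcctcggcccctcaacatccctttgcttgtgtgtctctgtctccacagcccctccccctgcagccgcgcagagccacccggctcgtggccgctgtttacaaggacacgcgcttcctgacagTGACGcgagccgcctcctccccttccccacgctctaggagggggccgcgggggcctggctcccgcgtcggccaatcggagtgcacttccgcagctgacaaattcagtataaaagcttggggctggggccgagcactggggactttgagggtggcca
Atf3 (chr1:191183284-191183583, minus strand): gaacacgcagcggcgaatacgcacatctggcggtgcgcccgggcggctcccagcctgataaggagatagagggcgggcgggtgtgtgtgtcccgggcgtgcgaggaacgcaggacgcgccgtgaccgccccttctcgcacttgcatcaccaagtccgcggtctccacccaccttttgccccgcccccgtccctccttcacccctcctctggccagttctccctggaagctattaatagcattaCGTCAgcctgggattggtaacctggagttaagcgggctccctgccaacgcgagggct
Maff (chr15:79347270-79347569, plus strand): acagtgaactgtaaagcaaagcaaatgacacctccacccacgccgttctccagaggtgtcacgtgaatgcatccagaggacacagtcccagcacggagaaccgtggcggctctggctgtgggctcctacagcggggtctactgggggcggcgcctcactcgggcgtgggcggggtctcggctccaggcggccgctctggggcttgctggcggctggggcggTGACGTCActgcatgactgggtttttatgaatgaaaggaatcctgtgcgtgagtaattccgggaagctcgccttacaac

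Counted from the start, the capitals begin at -129 and -66 in Fos, at -45 in Jun, at -106 in Junb, at -7 in Atf3 and at -29 in Maff. A match describes the letters alone. The Atf3 start used by RefSeq lies 34706 bases downstream of the outermost GENCODE start. Those of Junb and Jund lie upstream of their GENCODE starts, much further for Jund, whose window is not among those shown.

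After the study's own filter on cells, 2597 WT and 2514 KO cells remained, with a median of 5073 and 6564.5 UMIs (unique molecular identifiers, 1 per captured transcript). The members took 119935 UMIs in WT and 128500 in KO, or 6314 and 5754 per 1000000 UMIs (CPM). At least 1 member UMI was found in 98.6% of WT and 99.0% of KO cells. The study gives more cells for each library than the barcodes analysed here, severalfold more for WT. The libraries shared 1 of their deposited barcodes and none among the kept cells. The transcript matched by the study's primers, 1700016P04Rik, had 0 UMIs in both, which allows up to 0.158 CPM in the WT and 0.134 CPM in the KO library, so the genotype labels were not checked by it. Cells fell into 22 clusters, and 9 groups with at least 50 cells in each library were compared, 7 of them named from marker genes and 2 left unnamed. Resident macrophage-like cells (C1qa, Mrc1, Adgre1) numbered 311 in WT and 129 in KO, inflammatory monocyte-like cells (Ly6c2, Ccr2) 455 and 331, cDC2-like cells 260 and 457, cDC1-like cells 74 and 200, neutrophil-like cells 80 and 264, B cell-like cells 199 and 85 and T cell-like cells 172 and 64. Cluster 1, led by Serpinb2, Ccr3 and Retnlg, had 207 and 408 cells at a median of 768 and 970.5 UMIs, and cluster 6, led by Gm26917 and Gm42418, had 235 and 81 cells at a median of 1041 and 832 UMIs. Itgam, the gene of the labelled surface protein, was found in 52.5% to 83.4% of resident macrophage-like, monocyte-like, cDC2-like and neutrophil-like cells, but in 12.6% of WT and 1.18% of KO B cell-like cells. Plasma cell markers summed to between 771 and 10092 CPM across the 9 groups in WT and to between 110 and 284 CPM in KO, and their part in the results below was not tested.

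A member was taken as higher or lower in KO where its level, with 1 CPM added in each library, differed at least 1.5-fold, and was counted where it had at least 20 UMIs over both libraries, beside all genes with that many. In resident macrophage-like cells Jund and Atf3 were higher and Fosl2 and Batf lower, 2 and 2 of 10, where 8.95% of all genes were higher and 24.9% lower. Inflammatory monocyte-like cells had Atf3 higher and Junb and Batf3 lower of 10, where 8.27% and 21.3% of all genes passed. In cDC2-like cells none was higher and Fos, Fosl2 and Junb were lower of 10, against 6.98% and 18.8%. In cDC1-like cells Jun, Atf3 and Batf were higher and none lower of 10, against 10.2% and 15.6%. Neutrophil-like cells had Jund higher and Fos, Junb and Maff lower of 9, against 15.6% and 27.9%. B cell-like cells had none higher and Fosl2, Jun, Junb and Maff lower of 9, against 10% and 21.6%. In T cell-like cells Maff was higher and Junb lower of 9, against 12.2% and 35.7%. Cluster 1 had none higher and Jun and Junb lower of 8, against 19.4% and 16.1%, and cluster 6 had Jun, Atf3 and Batf3 higher and Junb lower of 9, against 22.4% and 25.3%. With 8 to 10 members counted in a group, every count lay within 3 genes of the number that the background share gives, so no group is set apart by how many members passed. Beside the cluster 6 calls, the 10 neutrophil markers summed to 513 CPM in WT and 6573 CPM in KO cells there, and their part was not tested.

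Fos, the main inducible partner of Jun proteins, was at 1069 CPM (1022 to 1116) in resident macrophage-like cells of the WT library and 943 CPM (885 to 1004) in those of the KO library, the highest mean of the 7 named classes. It was not apart from the next class, inflammatory monocyte-like cells, which were the highest under 5 of 17 alternative settings. These held 1085 and 785 CPM of Fos, cDC2-like cells 796 and 492 CPM, and neutrophil-like cells 1196 and 621 CPM. The KO level lay below the WT level in each of these 4 classes and no interval overlapped. The log2 KO to WT ratio was -0.94 (-1.17 to -0.72) in neutrophil-like and -0.69 (-0.77 to -0.61) in cDC2-like cells. Beside the Fos, Fosl2 and Junb calls in cDC2-like cells, the 12 inflammatory monocyte markers summed there to 2150 CPM in WT, with 11 counted, and 907 CPM in KO, with 12 counted, and their part was not tested. In cDC1-like cells, at 826 and 885 CPM, and in T cell-like cells, at 603 and 660 CPM, the intervals of the ratio included 0. Of these 7 classes Fos was lowest in B cell-like cells, at 422 and 294 CPM.

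In KO resident macrophage-like cells the 5 of 129 cells with the most Fos UMIs held 28.2% of the total, against 11.1% for 5 of 311 in WT. When each cell was thinned to 2000 UMIs, a Fos UMI was found in 75.1% (69.1 to 80.5) of the WT resident macrophage-like cells and in 60.2% (50.3 to 69.5) of those from KO, although the unthinned shares were 80.4% and 79.8%. These intervals overlapped slightly, and thinning left out 74 WT and 21 KO cells of this class that were shallower. In neutrophil-like cells the thinned share was 78.4% in WT and 51.3% in KO, in inflammatory monocyte-like cells 76.1% and 65.6%, and in cDC2-like cells 64.8% and 52.0%. In these 3 classes the intervals were apart, although thinning left out 29 of 80 WT and 26 of 264 KO neutrophil-like cells.

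Fosb, which is closely related to Fos, passed the 1.5-fold in none of the 9 groups. In resident macrophage-like cells Fosb stood at 667 CPM (631 to 705) in the WT and 986 CPM (927 to 1049) in the KO library, for a log2 ratio of 0.56 (0.44 to 0.68), while the ratio of Fos there was -0.18 (-0.29 to -0.07). With each library clustered alone, however, these ratios were -0.25 for Fosb and -0.81 for Fos, both below 0. In cDC2-like cells, where Fos was lower in KO, Fosb was at 861 and 878 CPM with overlapping intervals. Across 14 groups with at least 20 cells in each library (plasma cell-like, epithelial cell-like and mature dendritic cell-like cells and cluster 22 had fewer), Fosb was highest in cluster 16, a group led by Icos, Rora and Tnfsf11, at 1152 and 1678 CPM, and this was above the next group beyond the intervals in both libraries. Cluster 16 had 9 of 10 T cell markers raised, as well as 9 innate lymphoid cell markers, and was left unnamed.

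Fosl2 encodes Fra-2, a Fos protein of slower kinetics. T cell-like cells held 640 CPM (594 to 688) in the WT and 785 CPM (701 to 877) in the KO library and neutrophil-like cells 733 and 596 CPM, whereas cDC1-like cells held 115 and 105 CPM. In resident macrophage-like cells Fosl2 was at 240 CPM in the WT and 143 CPM in the KO library, for a log2 ratio of -0.75 (-1.03 to -0.48), and in cDC2-like cells at 283 and 176 CPM, a ratio of -0.69 (-0.82 to -0.55). The cDC2-like class joined cluster 2, with 160 WT and 333 KO cells, and cluster 10, with 100 and 124. Fos, at -0.68 and -0.77, and Junb, at -0.66 and -1.04, passed 1.5-fold in both clusters. Fosl2 was at -0.53 (-0.70 to -0.36) in cluster 2, less than 1.5-fold, and at -1.06 (-1.29 to -0.83) in cluster 10. B cell-like cells, at 171 CPM from 133 UMIs in WT and 50.8 CPM from 20 UMIs in KO, had a ratio of -1.75 (-2.51 to -1.07), the lowest of any member with at least 20 UMIs in the 9 groups. Markers of other cells moved with it, since the 10 neutrophil markers summed to 1202 CPM in WT B cell-like cells, with none at 0, and to 71.1 CPM in KO, with Cxcr2, Retnlg, Mmp9 and G0s2 at 0. The 12 inflammatory monocyte markers summed to 1243 and 736 CPM and the 12 resident macrophage markers to 1034 and 828 CPM. Their part in the B cell-like result was not tested.

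**Figure D1:**
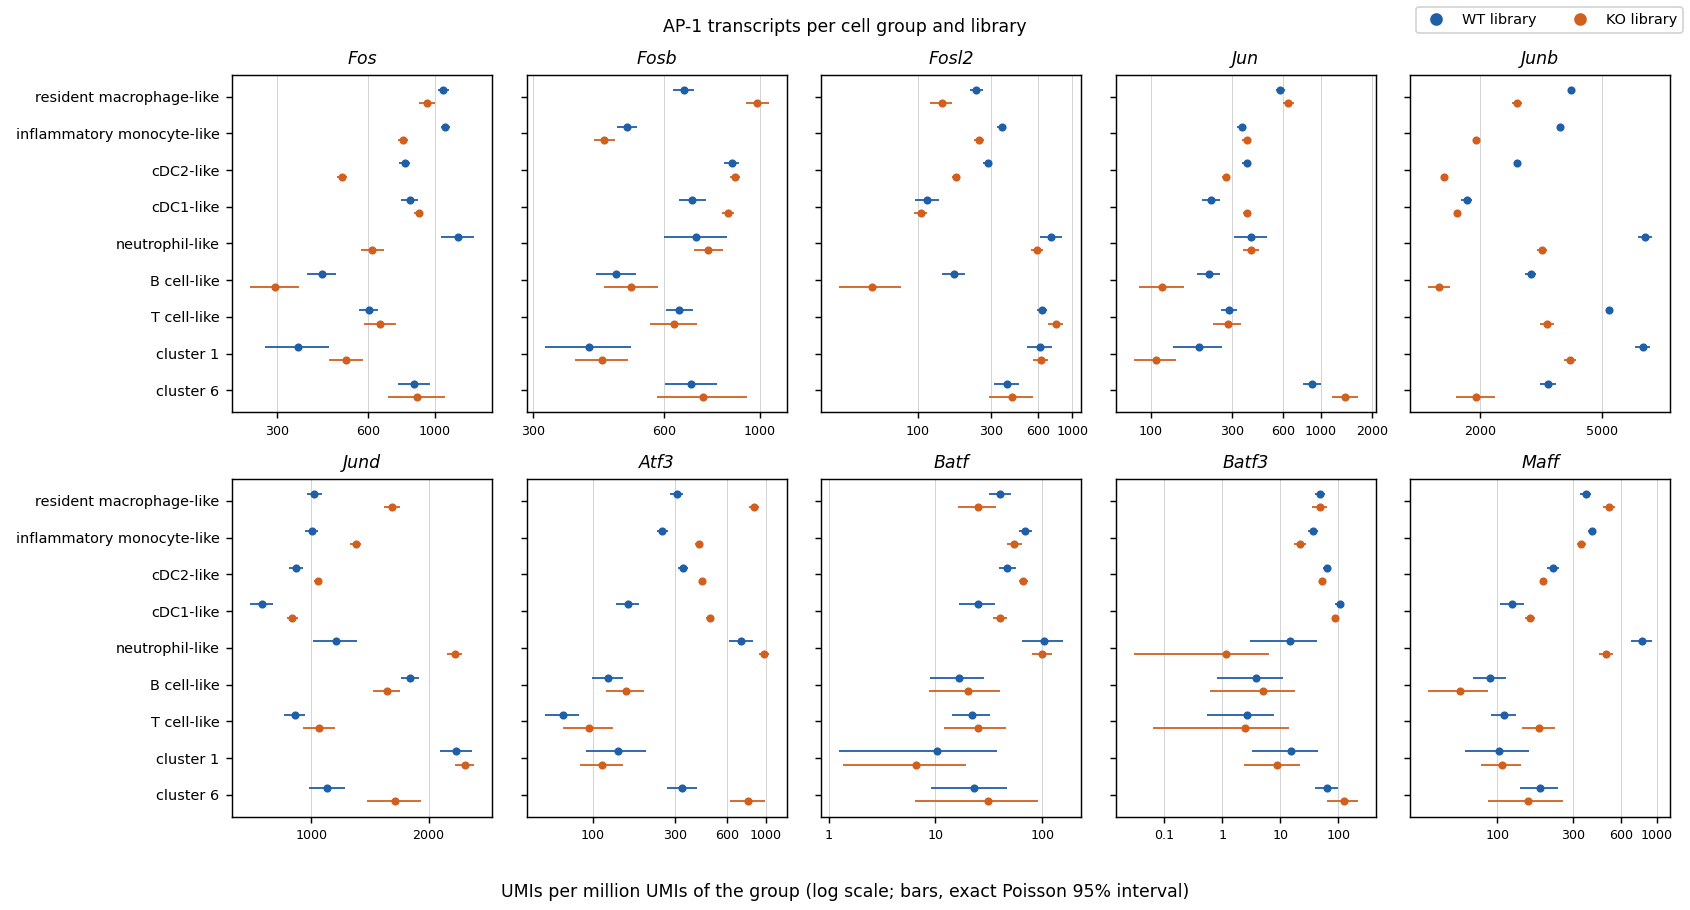
CPM (log axis, a scale of its own for each gene) of the 10 AP-1 transcripts in 9 cell groups; points are the WT (blue) and KO (orange) libraries, bars exact Poisson 95% intervals. Junb lies to the left in KO in every group, Atf3 to the right in all but cluster 1, and Batf3 is at 15.5 CPM or less outside macrophages, monocytes, dendritic cells and cluster 6.

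In the Jun group, Junb and Jund differed between the libraries in opposite directions. Junb, which restrains c-Jun in many cells and serves in activated T cells and myeloid cells, was the most counted member, with 48042 WT and 42436 KO UMIs. Neutrophil-like cells held 6929 CPM (6572 to 7301) in the WT and 3189 CPM (3071 to 3311) in the KO library, T cell-like cells 5293 and 3309.5 CPM, resident macrophage-like cells 3956 and 2638 CPM, and inflammatory monocyte-like cells 3657 and 1953 CPM. The KO value was below the WT value in all 9 groups, with the interval of the ratio below 0 in each. The log2 ratio ran from -1.12 (-1.21 to -1.03) in neutrophil-like cells to -0.10 (-0.17 to -0.03) in cDC1-like cells, where Junb was at 1813 and 1688 CPM.

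Junb passed the 1.5-fold downward in 7 of the 9 groups. Of 2026 genes measured in all 9 groups, 2.07% did so in 7 or more. A ratio below 0 in all 9 groups was less unusual and held for 9.67% of them. The median of all genes was itself below 0 in 7 groups, between -0.27 and -0.11, and relative to it Junb was lower in 8 of 9 groups and at 0.02 in cDC1-like cells. Being lower than that median in at least 8 groups held for 11.9% of the 2026 genes. By cluster, all 18 clusters with at least 20 cells in each library had a Junb ratio below 0, from -1.12 to -0.06. The share of all genes with that was not computed. T cell-like cells, which are among the 7 groups, did not pass 1.5-fold in either of their clusters. The ratio was -0.54 in cluster 12, with 145 WT and 33 KO cells, and -0.45 in cluster 21, with 27 and 31. These groups and clusters share the same 2 libraries and are not independent. Nearly all cells were positive, so that the share of cells said little. After thinning it was 98.6% (97.0 to 99.5) and 93.5% (90.1 to 96.0) in inflammatory monocyte-like cells and 96.8% and 88.2% in cDC2-like cells, with intervals apart in both.

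Jund, which is made at a steady level in most cells, went the other way. In neutrophil-like cells it was at 1156.5 CPM (1013 to 1314) in the WT and 2334 CPM (2233 to 2439) in the KO library, for a log2 ratio of 1.01 (0.82 to 1.21). Beside this and the Junb and Fos ratios of the class, its 10 neutrophil markers summed to 50463 CPM in WT and 85417 CPM in KO with none at 0, its 8 eosinophil markers to 571 and 152 CPM with 3 and 4 counted and Epx and Prg2 at 0 in both, Gm42418 was at 20177 and 10629 CPM, and the median mitochondrial share was 1.36% and 0.66%. Their part was not tested. Resident macrophage-like cells had 1019 CPM (974 to 1066) and 1614 CPM (1538 to 1693), a ratio of 0.66 (0.57 to 0.76). In this class, beside Jund and Atf3, the median mitochondrial share was 3.87% in WT and 5.55% in KO and Gm42418 was at 29560 and 17524 CPM, and their part was not tested either. In both classes the libraries did not overlap, and of the 9 groups these alone were past 1.5-fold. The resident macrophage-like ratio was, however, 0.21 with each library clustered alone. Outside the 9 groups, NK cell-like cells, with 26 WT and 41 KO cells, had 1328 and 2513 CPM, a ratio of 0.92 (0.68 to 1.17). Cluster 18, with 29 and 45 cells, had 752 and 1368 CPM, a ratio of 0.86 (0.61 to 1.12). Among the 9 groups cluster 6 followed with 1101 and 1638 CPM, a ratio of 0.57 (0.29 to 0.85), and inflammatory monocyte-like cells had 1002 and 1301 CPM, a ratio of 0.38 (0.31 to 0.45). The interval lay above 0 in 7 of 9 groups and below 0 in B cell-like cells, at 1790 and 1561 CPM and a ratio of -0.20 (-0.34 to -0.06). Being higher in at least 8 groups held for 6.37% of the 2026 genes, but past 1.5-fold higher in at least 2 groups for 19.4%. Jund varied least across cells, with a 2.94-fold range of mean level from cDC1-like cells to cluster 1.

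Jun itself, the c-Jun proto-oncogene and a main target of JNK, was at 579 CPM (545 to 614) in resident macrophage-like cells of the WT and 644 CPM (596 to 695) in those of the KO library. Cluster 6, at 890 and 1398 CPM, and stromal cell-like cells, at 801 and 964 CPM, held more of it in both libraries. Inflammatory monocyte-like cells, at 342 and 367 CPM, and neutrophil-like cells, at 389 and 391 CPM, had intervals of the ratio that included 0. cDC1-like cells differed, with 226 CPM (199 to 256) in the WT and 367 CPM (349 to 386) in the KO library and a log2 ratio of 0.70 (0.51 to 0.90). This class joined cluster 13, with 48 WT and 97 KO cells, and cluster 15, with 26 and 103 cells and led by Pclaf, Hist1h2ae and Top2a. Jun was at 0.41 (0.12 to 0.70) in cluster 13, less than 1.5-fold, and at 0.81 (0.55 to 1.09) in cluster 15. With each library clustered alone the cDC1-like ratio was 0.05 and the resident macrophage-like ratio, otherwise 0.15, was -0.71. B cell-like cells had 219 and 117 CPM, a ratio of -0.91 (-1.41 to -0.43), and cluster 1 had 191 and 107 CPM, a ratio of -0.84 (-1.48 to -0.18). In cluster 1, where Junb was lower too, WT cells held 36664 CPM and KO cells 5220 CPM of Gm42418, the 12 inflammatory monocyte markers summed to 2779 and 5695 CPM with 11 and 10 counted, and the 10 epithelial cell markers to 449 and 39.3 CPM with 10 and 7 counted. Their part was not tested. Over all cells together Jun was at 501 CPM in the WT and 315 CPM in the KO library, a ratio of -0.67, although its median ratio over the 9 groups was 0.01. The part of the cell mixture in this was not tested.

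**Figure D2:**
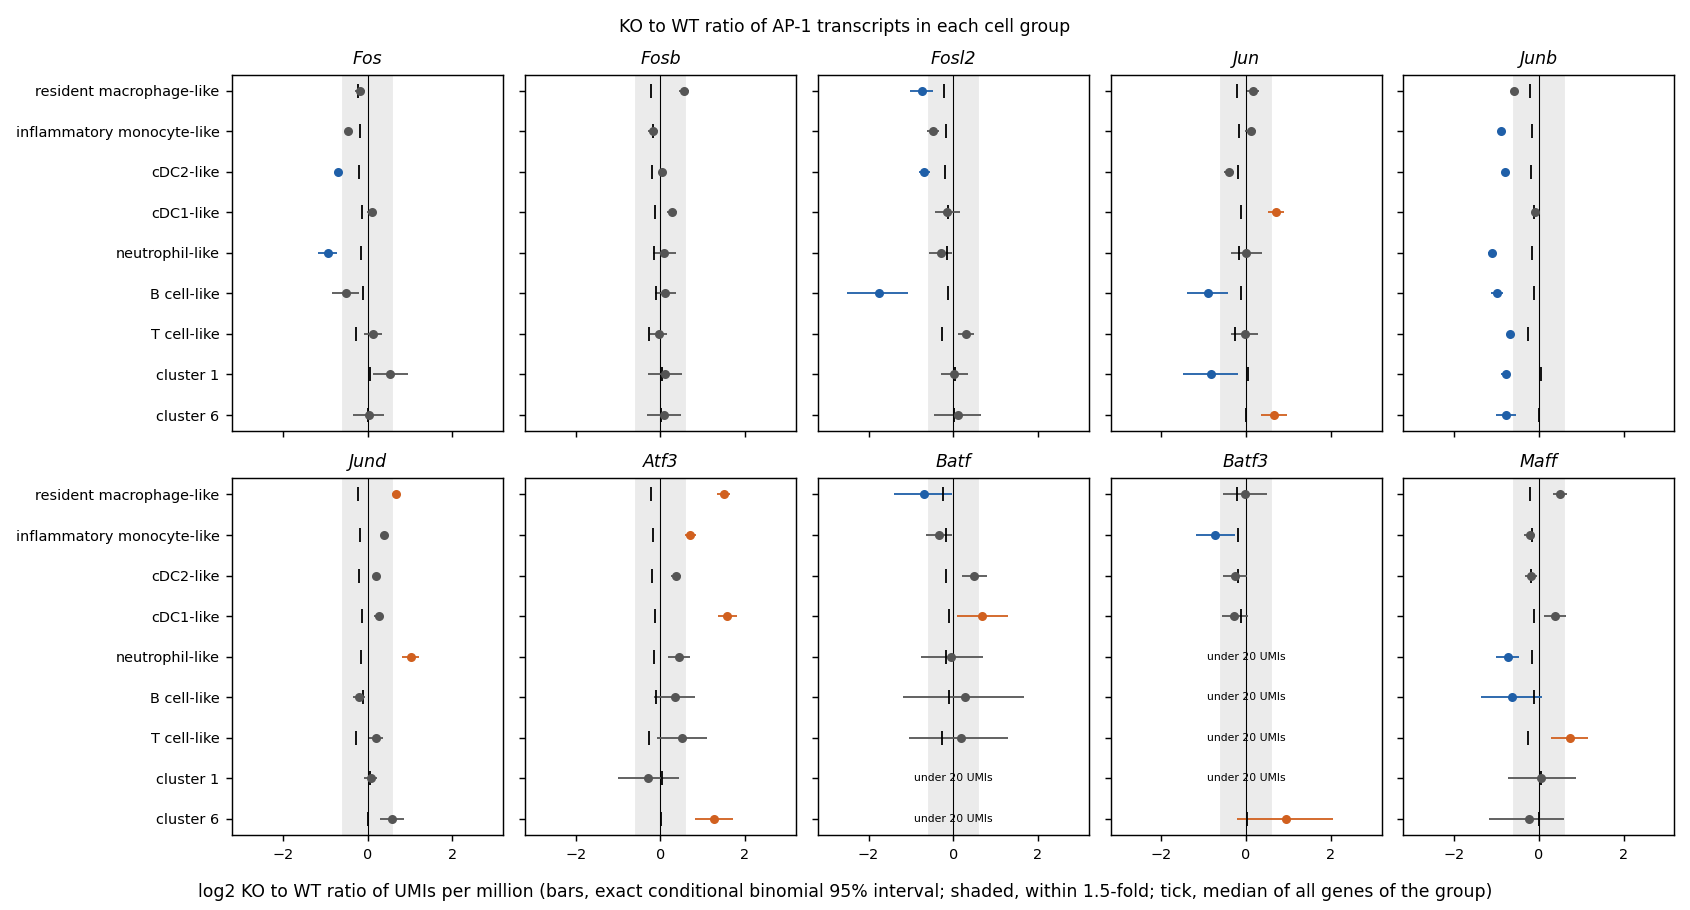
Log2 KO to WT ratio of CPM for each member and group with exact conditional binomial 95% intervals; shading marks less than 1.5-fold, orange and blue points lie past it upward and downward, and black ticks give the median of all genes of the group. Junb is left of 0 in all 9 groups and Fosb stays within the shading.

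Atf3, a member of the ATF/CREB branch that is induced by stress and known as a brake on inflammatory genes in macrophages, had the largest upward ratios among the members. In cDC1-like cells it was at 159 CPM (137 to 185) in the WT and 474 CPM (454 to 495) in the KO library, for a log2 ratio of 1.57 (1.35 to 1.80). Resident macrophage-like cells held 306 CPM (281 to 332) and 861 CPM (805 to 919), a ratio of 1.49 (1.34 to 1.65). In both classes the intervals of the libraries were far apart. The 10 neutrophil markers summed to 226 CPM in WT and 607 CPM in KO cDC1-like cells, and the 12 inflammatory monocyte markers to 1583 and 539 CPM in resident macrophage-like cells, and their part was not tested. Inflammatory monocyte-like cells had 253 and 412 CPM, a ratio of 0.71 (0.57 to 0.84), but the ratio was -0.28 where the cells were clustered on 4000 variable genes, and cluster 6 had 328 and 793 CPM, a ratio of 1.27 (0.82 to 1.72). In T cell-like cells Atf3 was at 66.8 and 95.1 CPM and in B cell-like cells at 122 and 155 CPM, with intervals of the ratio that included 0. Past 1.5-fold higher in at least 4 groups, as Atf3 was, were 4.0% of the 2026 genes. Among the 9 groups cluster 1 was the exception in direction, with 27 WT and 52 KO UMIs and a ratio of -0.30 (-0.99 to 0.43). A ratio above 0 in at least 8 groups held for 6.37% of the 2026 genes. By cluster, where no such share of all genes was computed, Atf3 was above 0 in 15 of 17 and below 0 in 2. Besides cluster 1 the latter held stromal cell-like cells, which were not among the 9 groups. With 78 WT and 21 KO cells these were at 90.5 and 32.9 CPM, a ratio of -1.46 (-2.86 to -0.28).

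At 2000 UMIs per cell, the share of cells with an Atf3 UMI was 25.0% (15.5 to 36.6) of WT cDC1-like cells against 54.8% (47.6 to 61.8) of those from KO, 38.0% (31.8 to 44.5) and 63.9% (54.1 to 72.9) in resident macrophage-like cells, and 29.8% and 44.2% in inflammatory monocyte-like cells. Intervals were apart in these 3 classes. In T cell-like cells, the lowest in Atf3 of the 7 classes, the share was 11.2% and 11.1%, with median depths of 5367 and 5842 UMIs. Unthinned, 53.1% of WT and 73.6% of KO resident macrophage-like cells had an Atf3 UMI. The 5 of 129 KO cells with the most held 23.3% of this class's Atf3 UMIs, against 11.5% for 5 of 311 in WT. As 5 cells are a larger part of 129 than of 311, these shares too do not compare the libraries.

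**Figure D3:**
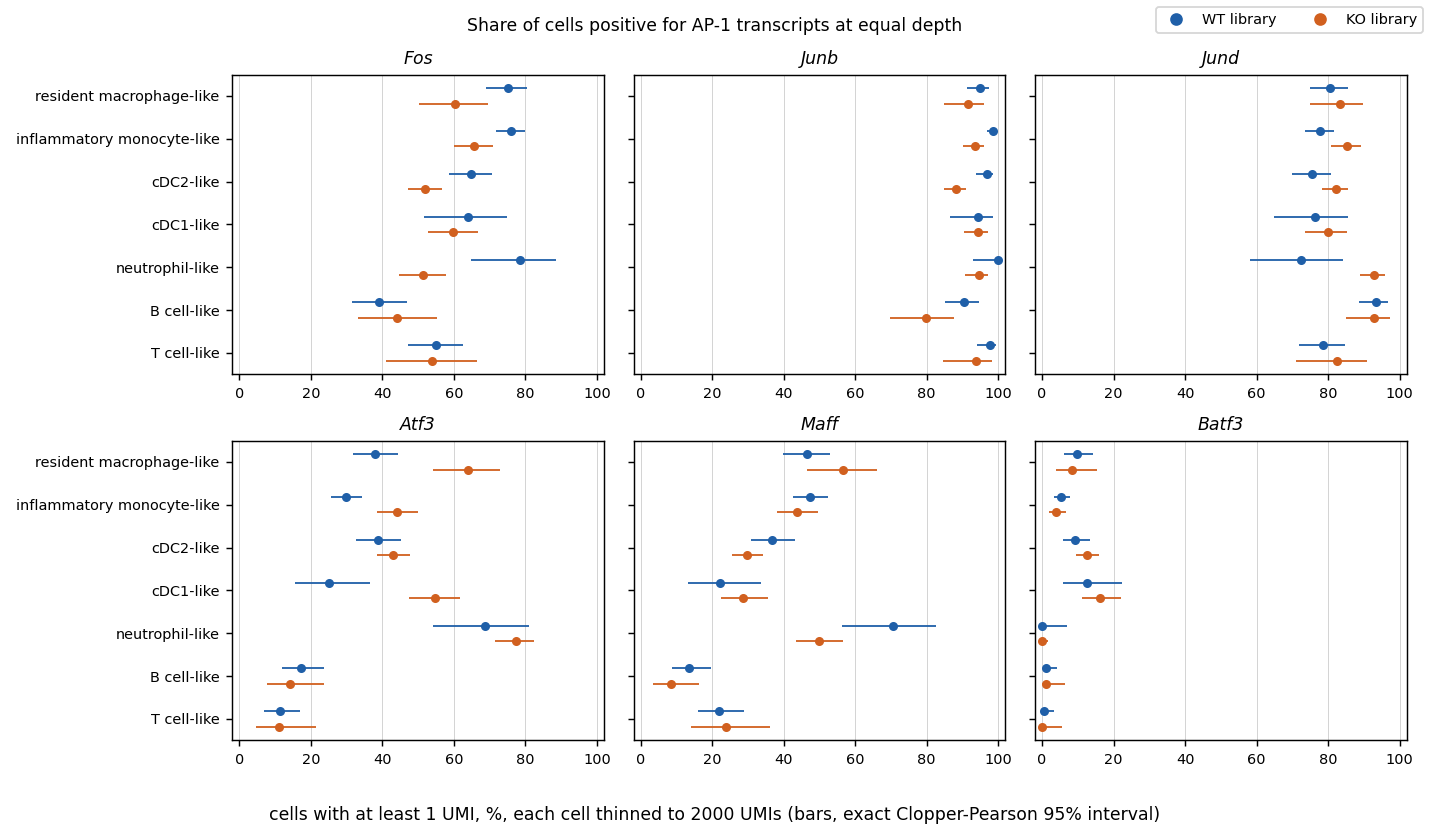
Percent of cells with at least 1 UMI of 6 members in the 7 named classes after each cell was thinned to 2000 UMIs; points are WT (blue) and KO (orange), bars exact Clopper-Pearson 95% intervals. Atf3 lies to the right in KO in cDC1-like, inflammatory monocyte-like and resident macrophage-like cells, whereas Junb is at 79.8% or more everywhere.

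The Batf pair was the least abundant. Batf, which works with Irf4 and Irf8 in lymphocytes and dendritic cells, was highest in neutrophil-like cells at 103 CPM (64.0 to 158) in the WT and 99.4 CPM (79.4 to 123) in the KO library. In cDC1-like cells 28 WT and 172 KO UMIs gave 25.2 and 40.0 CPM, for a log2 ratio of 0.67 (0.08 to 1.30), and in resident macrophage-like cells 76 and 26 UMIs gave 40.4 and 25.1 CPM, a ratio of -0.69 (-1.39 to -0.03). With 4000 variable genes the resident macrophage-like ratio was 0.11. The intervals of the WT and KO levels overlapped in both classes, and in WT cDC1-like cells 5 cells held 71.4% of the Batf UMIs. The cDC1-like difference lay in 1 of the clusters of that class. In cluster 13, with 48 WT and 97 KO cells, Batf was at 27.2 CPM in both libraries, with an interval of the ratio from -0.85 to 0.92. In cluster 15, with 26 and 103 cells, it was at 23.0 and 48.4 CPM, a ratio of 1.07 (0.22 to 2.07). Batf3 had 587 WT and 1087 KO UMIs in all. cDC1-like cells from WT held 106 CPM (88.0 to 127) and those from KO 87.8 CPM (79.1 to 97.1), cDC2-like cells 63.3 CPM (54.0 to 73.7) and 52.6 CPM (47.1 to 58.6), and resident macrophage-like cells 48.9 and 48.2 CPM. cDC1-like cells were above cDC2-like cells beyond the intervals in both libraries. Cells not named as dendritic also held Batf3, cluster 6 at 64.9 and 125 CPM, cluster 7 at 81.3 and 42.5 CPM and cluster 18 at 82.7 and 16.8 CPM. Mature dendritic cell-like cells, with 19 WT and 43 KO cells, had 137 and 113 CPM. T cell-like cells had 3 WT and 1 KO UMIs, and NK cell-like cells 0 in both.

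Batf3 in inflammatory monocyte-like cells depended on how the class was made up. The class as a whole was at 36.7 CPM (30.02 to 44.3) in the WT and 22.2 CPM (17.1 to 28.3) in the KO library, for a log2 ratio of -0.72 (-1.20 to -0.26). Cluster 3, with 420 WT and 63 KO cells, was at 39.1 and 76.2 CPM, a ratio of 0.96 (0.38 to 1.52), and cluster 8, with 35 and 268 cells, was at 8.67 CPM from 2 UMIs and 11.3 CPM from 27. The class thus differed in direction from both of its clusters, although the interval in cluster 8, -1.62 to 3.49, included 0, most WT cells lying in cluster 3 and most KO cells in cluster 8. Jun also differed between the clusters, with a ratio of 0.99 (0.81 to 1.18) in cluster 3 and -0.14 (-0.48 to 0.22) in cluster 8, and Fos was at 0.22 (0.09 to 0.35) and -0.63 (-0.82 to -0.43). Junb was at -0.83 and -0.70, Jund at 0.34 and 0.24, Atf3 at 1.22 and 0.42, and Fosl2 at -0.64 and -0.70, each in the direction of the class. Batf, at -0.34 in the class, was lower in both clusters, at -1.68 (-2.77 to -0.77) and -0.81 (-1.43 to -0.14). Fosb, at -0.18 in the class, was at 0.34 (0.16 to 0.52) and 0.11 (-0.22 to 0.44), so that its sign too was the opposite of the class in both. Maff was at -0.33 and 0.01. Cluster 3 was led by Ly6i and Cxcl9 and cluster 8 by Chil3 and Ace, and the 12 resident macrophage markers summed to 4401 CPM in WT and 2094 CPM in KO cells of the class.

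**Figure D4:**
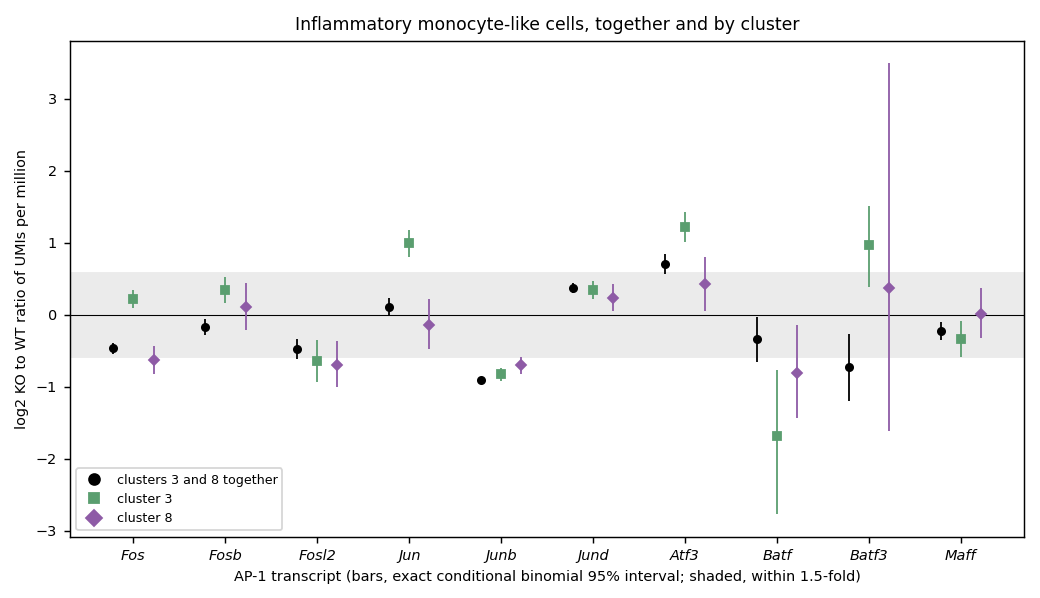
Log2 KO to WT ratio of each member in inflammatory monocyte-like cells together (black), in cluster 3 (green) and in cluster 8 (purple), with exact conditional binomial 95% intervals; shading marks less than 1.5-fold. Batf3 and Fosb are below 0 for the class and above 0 in both clusters, while Junb is below 0 and Atf3 above 0 in all 3.

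Maff had its highest mean in neutrophil-like cells, at 807 CPM (688 to 940.5) in the WT and 483 CPM (438 to 532) in the KO library, for a log2 ratio of -0.74 (-1.0 to -0.47). Resident macrophage-like cells had 359 CPM (333 to 388) and 506 CPM (464 to 551), a ratio of 0.49 (0.33 to 0.66). The B cell-like ratio of -0.62 was -0.19 without the top 3% of doublet scores, and past 1.5-fold in 6 of 12 alternative settings. In T cell-like cells 126 WT and 73 KO UMIs gave 111 and 183 CPM, a ratio of 0.72 (0.29 to 1.15), which became -0.13 when cells were thinned to 2000 UMIs. Beside this ratio, the 8 NK cell markers, which include Gzma, summed to 13188 CPM in WT and 60.04 CPM in KO T cell-like cells, with 6 and 5 of 8 counted. Cluster 12, which was led by Gzma and Gzmb, held 145 of the 172 WT cells but 33 of the 64 KO cells, and within it Maff was at 113 and 225 CPM, a ratio of 1.0 (0.48 to 1.5).

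Across single cells of 1 class and 1 library, Fos and Fosb had the highest correlation of any pair of members, with a median Pearson r of 0.37 over 14 sets of 7 classes and 2 libraries, with a range of 0.10 to 0.56. Fos with Junb was at 0.26, Fosb with Junb at 0.25, Fosb with Jun at 0.23, Fos with Jun at 0.22, Junb with Maff at 0.22, and Jun with Atf3, Fosb with Atf3, Fosb with Jund and Junb with Jund at 0.21. The immediate-early genes were not alike in this, since Jun with Junb was at 0.15 and Junb with Atf3 at 0.10, below Fosl2 with Junb at 0.17. The median r of pairs with Batf or Batf3 was between -0.07 and 0.09, with single sets from -0.22 to 0.37. The cells of a set share a library and differ in depth, counts are sparse, and r is given as a description.

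**Figure D5:**
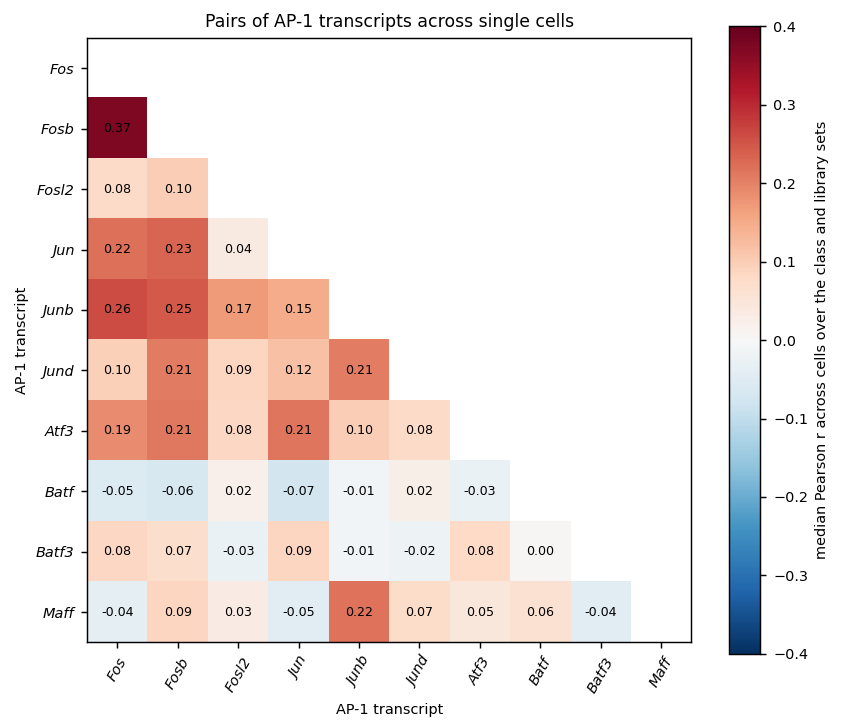
Median Pearson r of each pair of members across the cells of 1 class and 1 library, over 14 such sets; red is above 0 and blue below. Fos with Fosb is highest at 0.37, and the Batf and Batf3 rows are pale.

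Likeness of level was measured by Pearson r of log2(CPM + 10) over 32 profiles of a group and library, among 9485 genes with at least 200 UMIs. Within the members, Fosl2 and Junb were each among the 3 genes most like the other, at r = 0.88. Junb was otherwise most like Btg1 (0.89), an antiproliferative gene, and Nfkb1 (0.86). Batf3 was most like Etv3 (0.90), Ciita (0.88), the master regulator of MHC class II, and Tbc1d9 (0.87). Maff was most like Nfkbia (0.89), which encodes the inhibitor IkBa, Csrnp1 (0.88) and Ifrd1 (0.87), and Atf3 like Zfand5 (0.86), Ifrd1 (0.80) and Rab11fip1 (0.79). Batf was most like Fmnl1 (0.81), Gadd45b (0.79) and Slc38a1 (0.79), and Fosl2 also like Nabp1 (0.88) and Arhgef3 (0.85). Fos, Fosb, Jun and Jund had no gene above 0.77, the leading ones being Tet3 (0.71), Gna13 (0.69), Fahd1 (0.75) and Il16 (0.77). The profiles share 2 libraries and differ in depth.

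Other genes of the pathway were taken from lists, and their counts are to be read against the background shares of each group given above. Apart from Irf4, the single genes named below were those of each list past 1.5-fold in the most groups. Their numbers of groups are thus high by choice and describe these genes only. Of 17 further AP-1 family genes, 5 of 13 measured were higher and 1 lower in KO T cell-like cells (median 0.37, all genes -0.27), where 12.2% and 35.7% of all genes passed. In inflammatory monocyte-like cells 1 was higher and 6 lower of 17 (median -0.29, all genes -0.17), against 8.27% and 21.3%. Resident macrophage-like cells had 1 higher and 3 lower of 17, cDC2-like cells 2 and 3 of 17, cDC1-like cells 3 and 0 of 16, neutrophil-like cells 4 and 4 of 13, B cell-like cells 0 and 4 of 14, cluster 1 had 4 and 2 of 11 and cluster 6 had 0 and 3 of 9. Maf was higher in 3 groups and lower in 2, and Jdp2, a repressor that pairs with Jun, higher in 1 and lower in 3. Of 18 MAP kinases and activators none was higher and 5 of 17 measured were lower in resident macrophage-like cells (median -0.39, all genes -0.22), where 24.9% of all genes were lower. The numbers higher and lower were 1 and 3 of 17 in inflammatory monocyte-like, 0 and 6 of 18 in cDC2-like, 0 and 2 of 18 in cDC1-like, 2 and 2 of 12 in neutrophil-like, 0 and 4 of 15 in B cell-like and 4 and 4 of 16 in T cell-like cells, 0 and 2 of 11 in cluster 1 and 2 and 0 of 8 in cluster 6. Mapk3, which encodes ERK1, was at 111 and 68.5 CPM in resident macrophage-like cells and lower past 1.5-fold in 6 groups, and Map2k7, which activates JNK, was at 41.5 and 20.2 CPM in the same class and lower in 4. Mapk14, which encodes p38α, was higher in 1 group and lower in 3.

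Among partners of AP-1 on DNA, Irf8 was past 1.5-fold lower in 8 of 9 groups, at 828 and 530 CPM in cDC1-like cells and 244 and 139 CPM in inflammatory monocyte-like cells. In cluster 6, which is among the 8, the 70 WT and 13 KO UMIs gave an interval that included 0 (-1.72 to 0.12). Of the 2026 genes measured in all 9 groups, 2.07% were past 1.5-fold lower in 7 or more. Irf8 is needed for cDC1 and acts with Batf3. Runx3 was lower in 5 groups and higher in 1, and Nfatc3 lower in 5. Resident macrophage-like cells, at 260 and 175 CPM of Runx3 and a ratio of -0.57 (-0.82 to -0.32), did not pass 1.5-fold. In cluster 1, where Runx3 was higher, 18 WT and 66 KO UMIs gave an interval that included 0 (-0.14 to 1.47). Irf4, named after its values were seen, went both ways, higher in T cell-like cells, at 58.0 and 113 CPM, and in cluster 6, and lower in inflammatory monocyte-like cells, at 33.6 and 14.6 CPM. Of the 11 partners, the numbers higher and lower were 1 and 2 of 11 measured in resident macrophage-like, 0 and 3 of 11 in inflammatory monocyte-like, 0 and 4 of 11 in cDC2-like, 0 and 3 of 11 in cDC1-like, 0 and 6 of 9 in neutrophil-like and 0 and 2 of 10 in B cell-like cells. T cell-like cells had 2 and 1 of 10 (median 0.30, all genes -0.27), cluster 1 had 1 and 2 of 9 and cluster 6 had 1 and 2 of 8. The list of 18 genes known as AP-1 targets went both ways. In resident macrophage-like cells 10 of 17 measured were higher and 1 lower (median 0.87, all genes -0.22), in cDC1-like cells 8 higher and 2 lower of 17 (0.57, all genes -0.12), but in inflammatory monocyte-like cells 4 higher and 8 lower of 18 (-0.22, all genes -0.17) and in B cell-like cells none higher and 8 lower of 9 (-1.83, all genes -0.11). Of all genes, 8.95% were higher in resident macrophage-like and 10.2% in cDC1-like cells, and 21.3% were lower in inflammatory monocyte-like and 21.6% in B cell-like cells. The other groups had 3 higher and 0 lower of 16 in cDC2-like, 5 and 4 of 14 in neutrophil-like and 3 and 5 of 9 in T cell-like cells, 4 and 3 of 11 in cluster 1 and 3 and 3 of 11 in cluster 6. Hmox1, the haem-degrading enzyme, was higher past 1.5-fold in 8 groups and lower in B cell-like cells, at 327 and 824 CPM in resident macrophage-like cells and 473 and 1783 CPM in inflammatory monocyte-like cells. Ptgs2, the inducible prostaglandin synthase, was lower in 7 groups, at 2003 and 768 CPM in resident macrophage-like cells, and higher in cDC1-like cells, at 45.0 and 156 CPM. Il1b was lower in 5 groups and higher in T cell-like cells, at 22.0 and 77.5 CPM.

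Genes that cell dissociation induces, other than the members, were counted beside these results. Of 20, 4 were higher and 2 lower in KO resident macrophage-like cells (median 0.03, all genes -0.22), against 8.95% and 24.9% of all genes. In cDC1-like cells 7 were higher and none lower (0.29, all genes -0.12), against 10.2% and 15.6%. In cDC2-like cells 1 was higher and 6 lower (-0.20, all genes -0.19), against 6.98% and 18.8%, and in neutrophil-like cells 2 were higher and 6 lower (-0.22, all genes -0.16), against 15.6% and 27.9%. B cell-like cells had none higher and 9 lower of 19 (-0.52, all genes -0.11), against 10% and 21.6%. Inflammatory monocyte-like cells had 2 higher and 1 lower of 20, T cell-like cells 2 and 3 of 19, cluster 1 had 2 and 3 of 19 and cluster 6 had 4 and 2 of 19. Hspa1a, a heat-shock gene, was at 436 and 1411 CPM in resident macrophage-like cells and 156 and 407 CPM in cDC1-like cells, and inflammatory monocyte-like cells held 124 and 378 CPM of it. Hspa1b was at 382 and 1448 CPM, 136 and 383 CPM, and 108 and 369 CPM in the same classes. In T cell-like cells both were lower, Hspa1a at 92.3 and 40.02 CPM and Hspa1b at 139 and 90.1 CPM, in cluster 1 Hspa1a was at 155 and 67.6 CPM, and in B cell-like cells Hspa1b was at 73.3 and 45.7 CPM. Socs3, which moved in the same way in cDC1-like cells, at 32.4 and 83.8 CPM, was at 201 and 177 CPM in resident macrophage-like cells. Their part in the differences of the members was not tested.

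Neighbours in the order of levels over the 14 groups were mostly not apart. Of 13 neighbouring pairs, none was apart in both libraries beyond the intervals for Fosl2, Jund, Atf3, Batf, Batf3 and Maff, 1 for Fos and Fosb, 2 for Jun and 3 for Junb. Between the ends the mean level differed 4.56-fold for Fos, from NK cell-like cells to cluster 16, 6.71-fold for Fosl2, 13.8-fold for Atf3 and 13.8-fold for Maff, the last 2 from stromal cell-like to neutrophil-like cells.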

How the data were processed

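Single-cell RNA sequencing of 1 WT and 1 KO library was analysed from the deposited gene by barcode tables. Per the file headers the authors counted UMIs with Cell Ranger 3.0.2, and the values are raw counts, not normalized. The submitters' processing notes name mm10 and Seurat 4. No column belonged to another sample (0). Deposited totals were 22191774 counts in 3185 WT and 23384895 in 3020 KO barcodes.

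Cells with 200 to 6000 genes and at most 15% mitochondrial counts were kept, as in the study. The study's clustering tool, DESC, was not installed, so Leiden clusters were used (scanpy 1.11.5, leidenalg 0.10.2, Python 3.11.15; 2000 variable genes without the members and list genes, 30 principal components, 15 neighbours, resolution 1). A cluster was named for the class with the most raised markers, at least 3, and left unnamed where another class had as many or more markers among its top 10 genes. That equality also leaves a cluster unnamed was decided after the first clustering had been seen. Scrublet marked 1 WT and 9 KO cells (0.0385% and 0.358%), too few for a working call, and no cell was removed by it.

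For every class, the counts of a library's cells were added up and scaled to CPM, with exact Poisson intervals, shares with exact Clopper-Pearson intervals, unthinned and thinned to 2000 UMIs, and KO to WT ratios with exact conditional binomial intervals (scipy 1.17.1), all at 95%. The interval code was tested on simulated data. UMIs correct for amplification, but intervals still leave out variation between animals. No p-value was computed. Named genes were all 10 members, the 3 genes of each pathway list past the fold in most groups, and the 3 genes most like each member, to which Irf4 was added after its values were seen. One gene that this rule names is not reported here. The members and lists were chosen with earlier results of these data known. Alternatives covered clustering, filters, doublet scores, scaling, prior, thinning and threshold.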

Additional observations from a re-analysis of the deposited data

Results flagged for a closer look

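For 3 members the KO to WT log2 ratio (1 CPM added) went in opposite directions in different classes, past 1.5-fold in each. Jun was at 0.70 in cDC1-like and -0.90 in B cell-like cells, a gap of 1.6. Batf was at 0.65 in cDC1-like and -0.67 in resident macrophage-like cells, a gap of 1.31. Within the cDC1-like class, and without the added 1 CPM, Batf was at -0.0009 in cluster 13 and 1.07 in cluster 15. Jun was there at 0.41 and 0.81, so neither member passed 1.5-fold in cluster 13. Maff was at 0.72 in T cell-like and -0.74 in neutrophil-like cells, a gap of 1.46. With 1 library per genotype these differences were not tested.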

How the results depend on the processing

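No paired analysis was possible because each genotype had 1 library. Over the 7 named classes, 8 of 67 class and member pairs were past 1.5-fold higher in KO and 15 lower. In the same classes 6.98% to 15.6% of all genes were higher and 15.6% to 35.7% lower, so these counts do not set the members apart. Relative to the median of all genes these were 13 and 7, and at 2-fold 3 and 2. With each library clustered alone 5 were higher, and no WT T cell-like class was found. Shares of positive cells with intervals apart were 4 higher and 7 lower after thinning, 8 and 3 without it. Of 825 alternative values of 67 ratios under 17 settings, 636 stayed within the counting interval. Of the rest, 5 reversed a ratio that was past 1.5-fold as reported. Counting also ratios within 1.5-fold, 71 values of 28 ratios had the other sign. The 5 were Atf3 in inflammatory monocyte-like cells (-0.28) and Batf in resident macrophage-like cells (0.11), both with 4000 variable genes, Batf3 in monocytes held to cluster 3 (0.95) or cluster 8 (0.34), both added after seeing the data, and Maff in thinned T cell-like cells (-0.13). The cause was not tested. Batf and Batf3 are limited by depth, with fewer than 20 UMIs in 2 and 4 of the 9 groups.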
